A study of Mus musculus with 12 samples.

Results

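Collagens are the proteins of the extracellular matrix that wind as trimers into a triple helix, and their genes are named Col, type number, a, chain number. The genes described here are all those of this name for which a probe set, a group of short array probes for 1 transcript, carries that gene symbol and no other. They are 42 genes of the 18193 that could be read in this way, with 82 of the 45037 probe sets tested. By the structure of their products 11 are fibrillar, 6 are chains of type IV, the collagen of basement membranes, 9 are FACIT collagens, which sit on the surface of fibrils, and 16 are of other kinds. The last are 5 beaded filament chains (type VI), 2 multiplexins, 3 network chains, 1 anchoring fibril chain, 4 transmembrane collagens and *Col26a1*. *Col6a6* and *Col28a1* were not analysed here.

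The samples were C57BL/6 mouse embryonic stem (ES) cells, on 12 Affymetrix arrays, 2 per group in 6 groups. The wild type (WT) was set against *Terc*-/- (KO) cells, which lack the RNA template of telomerase and came from mice of late generations (G3/4) with short telomeres. Undifferentiated cells were taken at day 0, the WT lines N12 and N33 at passage 12 and the KO lines F35 and A49 at passage 11, so that passage and genotype cannot be told apart at that day. The paper gives F35 as a G3 line and A49 as a G4 line, with the shortest telomeres in A49. Differentiated cells of both genotypes were taken at days 8 and 15, after embryoid bodies had formed in hanging drops for 4 days without LIF and had been plated at 10 to 15 per well. Which lines the later arrays hold is not given in the sources used here, and p-values measure only the spread between these samples. *Terc* itself was not analysed here, and the genotypes rest on the labels.

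Fibrillar collagens of types I, III and V and the type VI filaments are products of fibroblasts and other mesenchymal cells, whereas type IV chains are made by most cells that border a basement membrane and in large amount by parietal endoderm. The chains are built on the rough endoplasmic reticulum, where prolines and lysines are hydroxylated before the helix folds. ES cells of this study were grown on feeders, mouse embryonic fibroblasts stopped in division with mitomycin C, which make fibrillar and type VI collagens themselves.

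Values are intensities scaled by the authors, and each gene was read from its brightest probe set. The 4 day 0 arrays, with medians of 114 to 117, were scaled apart from the 8 later ones, with medians of 50.6 to 53.1, so levels were not compared between day 0 and later days. Of the 42 genes, 8 lay under the median of their array on all 12 arrays and are called dim. A gene passed when its adjusted p in the limma fit was under 0.05. In 2 groups the arrays stood apart. WT day 8 replicate 2 was over 2-fold above replicate 1 in 14 of the 42 collagens, while 2.92% of all genes lay that far apart in either direction. WT day 15 replicate 2 was over 2-fold above replicate 1 in 3 collagens and in 7 of 10 ES cell markers, and over 2-fold below it in 1 collagen, *Col6a3*. Of all genes, 2.50% lay that far apart in either direction. An array has no read depth, and the number of arrays limits the precision.

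At day 15 many collagens read lower in KO cells, with the largest differences from WT cells in *Col1a2*, *Col5a2* and *Col8a2*. Of the 42 genes, 18 were lower in KO cells and 2 were higher, against 8.31% and 8.77% of all genes and 17.1% for both directions together. The median log2 difference, KO minus WT, was -0.70 over the collagens and 0.04 over all genes. Lower were 5 of 11 fibrillar genes, 1 of 6 type IV genes, 4 of 9 FACIT genes and 8 of the 16 others, to which both genes that were higher belonged. Both KO arrays lay below both WT arrays in 24 collagens and above them in 7, where 25.8% and 33.1% of all genes did so. In such bulk samples fewer cells of a type and less RNA per cell cannot be told apart. With KO day 15 replicate 1 left out, 13 genes were lower and none higher, against 5.46% of all genes, *Col1a1*, *Col5a1*, *Col17a1*, *Col27a1*, *Col15a1*, *Col7a1* and *Col6a4* no longer passing. The methods' t-test, which the paper names for 2-group data in general, passed 18 collagens unadjusted, against 17.9% of all genes. After adjustment it passed 0 collagens and also 0 of all 18193 genes. By the 1.8-fold rule, which the methods set for the arrays, 19 collagens were lower and 0 higher, against 8.65% of all genes in either direction.

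**Figure D1:**
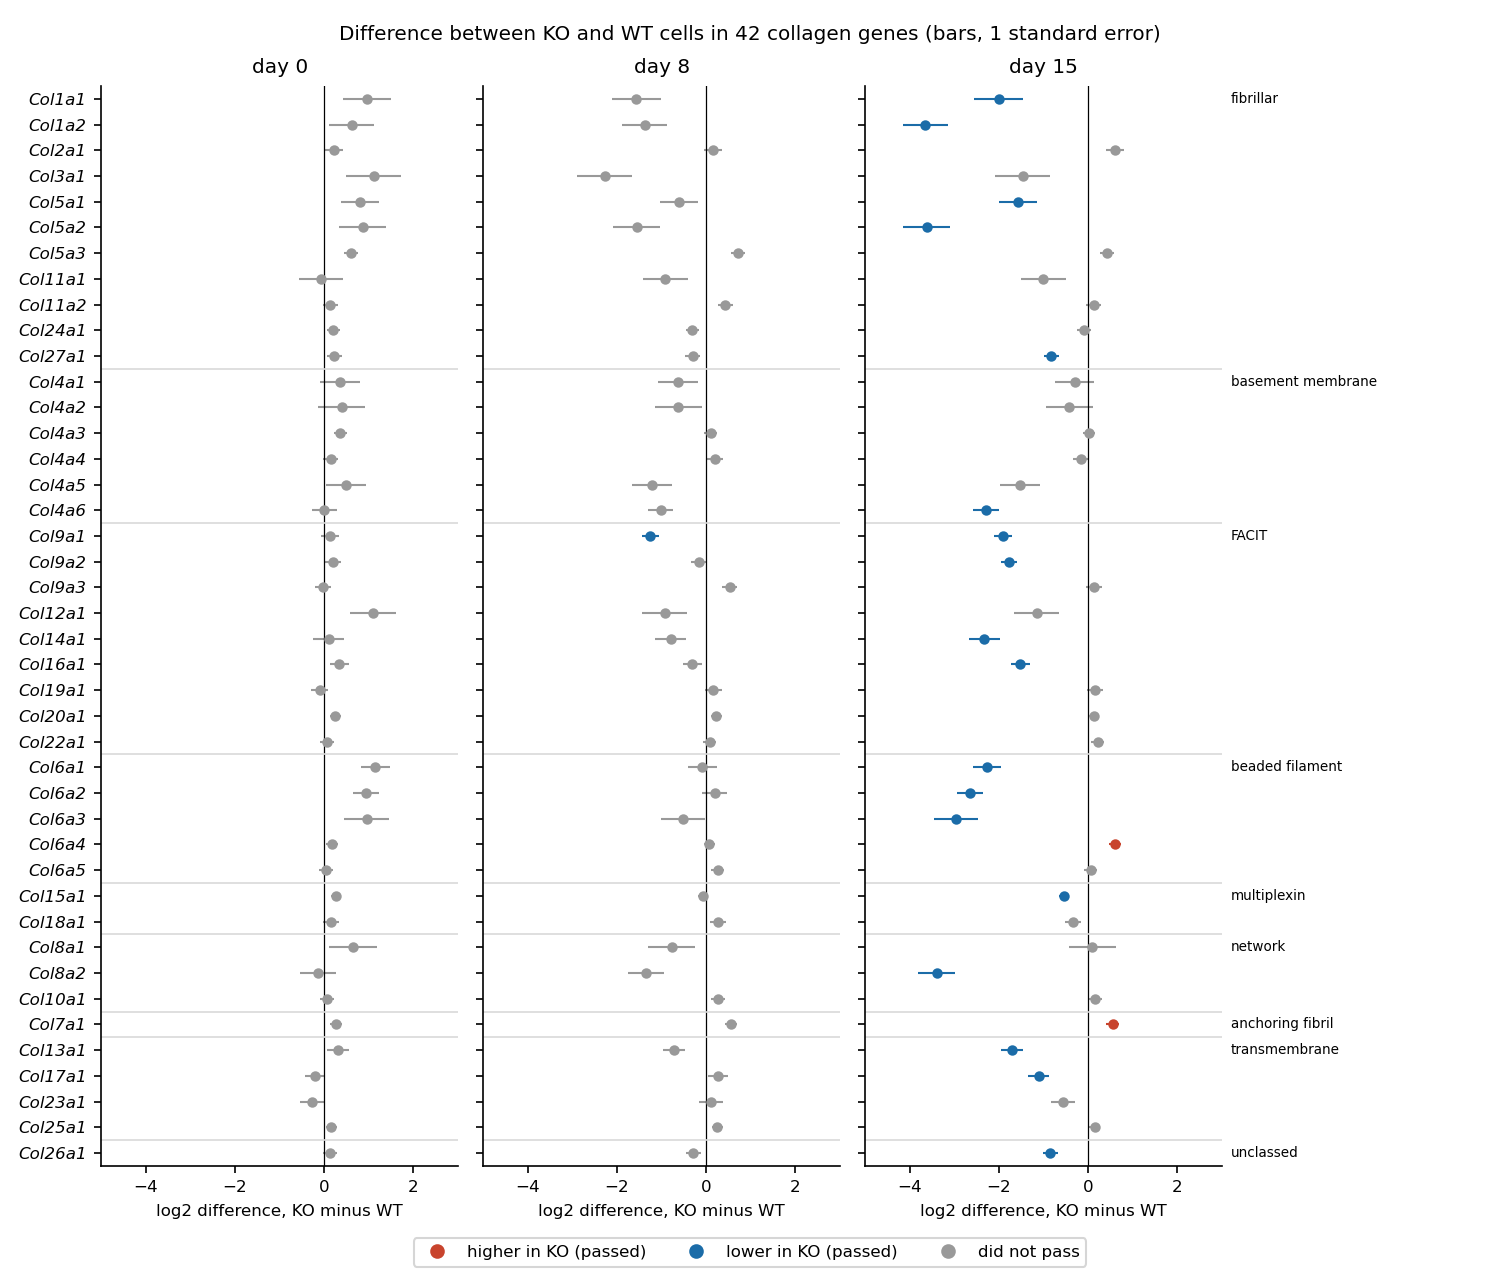
Log2 difference between KO and WT cells (x axis) in each of the 42 collagen genes (y axis, grouped by the kind of collagen) at days 0, 8 and 15, with bars of 1 standard error of the limma fit and colours for genes that passed. At day 15, 18 genes lie to the left of 0 in blue and 2 to the right in red, at day 8 *Col9a1* alone is coloured, and at day 0 none is.

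Type I collagen, the main fibril of skin, bone and tendon, was among the genes with the largest difference. *Col1a2*, its α2 chain, read 19252 and 14683 on the WT arrays of day 15 and 1424 and 1254 on the KO arrays. It was 12.7-fold lower in KO cells by the ratio of the means, with a log2 difference of -3.65 ± 0.51 (SE, adjusted p = 0.00248). The groups lay far apart, and each of its 3 probe sets was lower, by -3.50 to -4.43. *Col1a1*, the partner chain α1, read 4795 and 5172 in WT cells and 1076 and 1423 in KO cells. Its difference of -2.01 ± 0.55 passed narrowly (adjusted p = 0.0435), and it did not pass after quantile normalization (adjusted p = 0.0714) or without the day 0 arrays (adjusted p = 0.0857), nor in 10 of the 12 fits that left out 1 array (adjusted p of 0.0514 to 0.187).

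Types III and V, which form mixed fibrils with type I, were lower in part. *Col5a2* read 5523 and 3676 in WT cells and 329 and 404 in KO cells, a log2 difference of -3.63 ± 0.54 (adjusted p = 0.00327). *Col5a1*, which pairs with it in type V trimers, read 6800 and 4692 against 1578 and 2285, a difference of -1.57 ± 0.42 (adjusted p = 0.0398) that did not pass without the day 0 arrays or in 7 of the 12 fits that left out 1 array. KO arrays lay below WT arrays for both chains. *Col3a1* read 18771 and 14372 in WT cells and 4590 and 7616 in KO cells, and its difference of -1.47 ± 0.62 did not pass (adjusted p = 0.167). Its other probe set read 4387 and 2900 against 347 and 645 and passed at -2.91 ± 0.70 (adjusted p = 0.0268), so that the 2 probe sets agreed in direction but not in size or call. *Col3a1* and *Col5a2* are neighbours on chromosome 1 in the RefSeq annotation.

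The fibrillar genes of cartilage did not pass. *Col2a1*, the main collagen of cartilage, read 250 and 244 in WT cells and 317 and 445 in KO cells at day 15, with both KO arrays above, and its difference of 0.61 ± 0.20 did not pass (adjusted p = 0.0700). *Col11a1*, which copolymerises with it, read 287 and 250 against 108 and 164, with both KO arrays below, and did not pass (adjusted p = 0.247). *Col11a2* did not pass at 0.12 ± 0.17. Of 11 measured cartilage markers, *Matn1* alone passed at day 15, higher in KO cells and dim, where 17.1% of all genes passed in either direction. Of the remaining fibrillar genes *Col27a1* was lower at -0.83 ± 0.17 (adjusted p = 0.00937), and *Col5a3* and *Col24a1* did not pass at 0.41 ± 0.16 and -0.10 ± 0.15.

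All 3 main chains of type VI collagen, which forms beaded microfibrils around mesenchymal cells, were lower. *Col6a1* read 3120 and 2266 in WT cells and 481 and 633 in KO cells, *Col6a2* read 3091 and 2383 against 353 and 527, and *Col6a3* read 3324 and 1623 against 239 and 370. No KO array reached a WT array for any of them. Their log2 differences were -2.27 ± 0.32, -2.65 ± 0.28 and -2.97 ± 0.50, with adjusted p of 0.00201, 0.000499 and 0.00597. *Col6a1* and *Col6a2* lie side by side on chromosome 10, while *Col6a3* is on chromosome 1. *Col6a4*, a dim gene, was the exception, with readings of 29.6 and 26.4 in WT cells and 45.7 and 39.2 in KO cells, higher by 0.60 ± 0.13 (adjusted p = 0.0114).

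**Figure D2:**
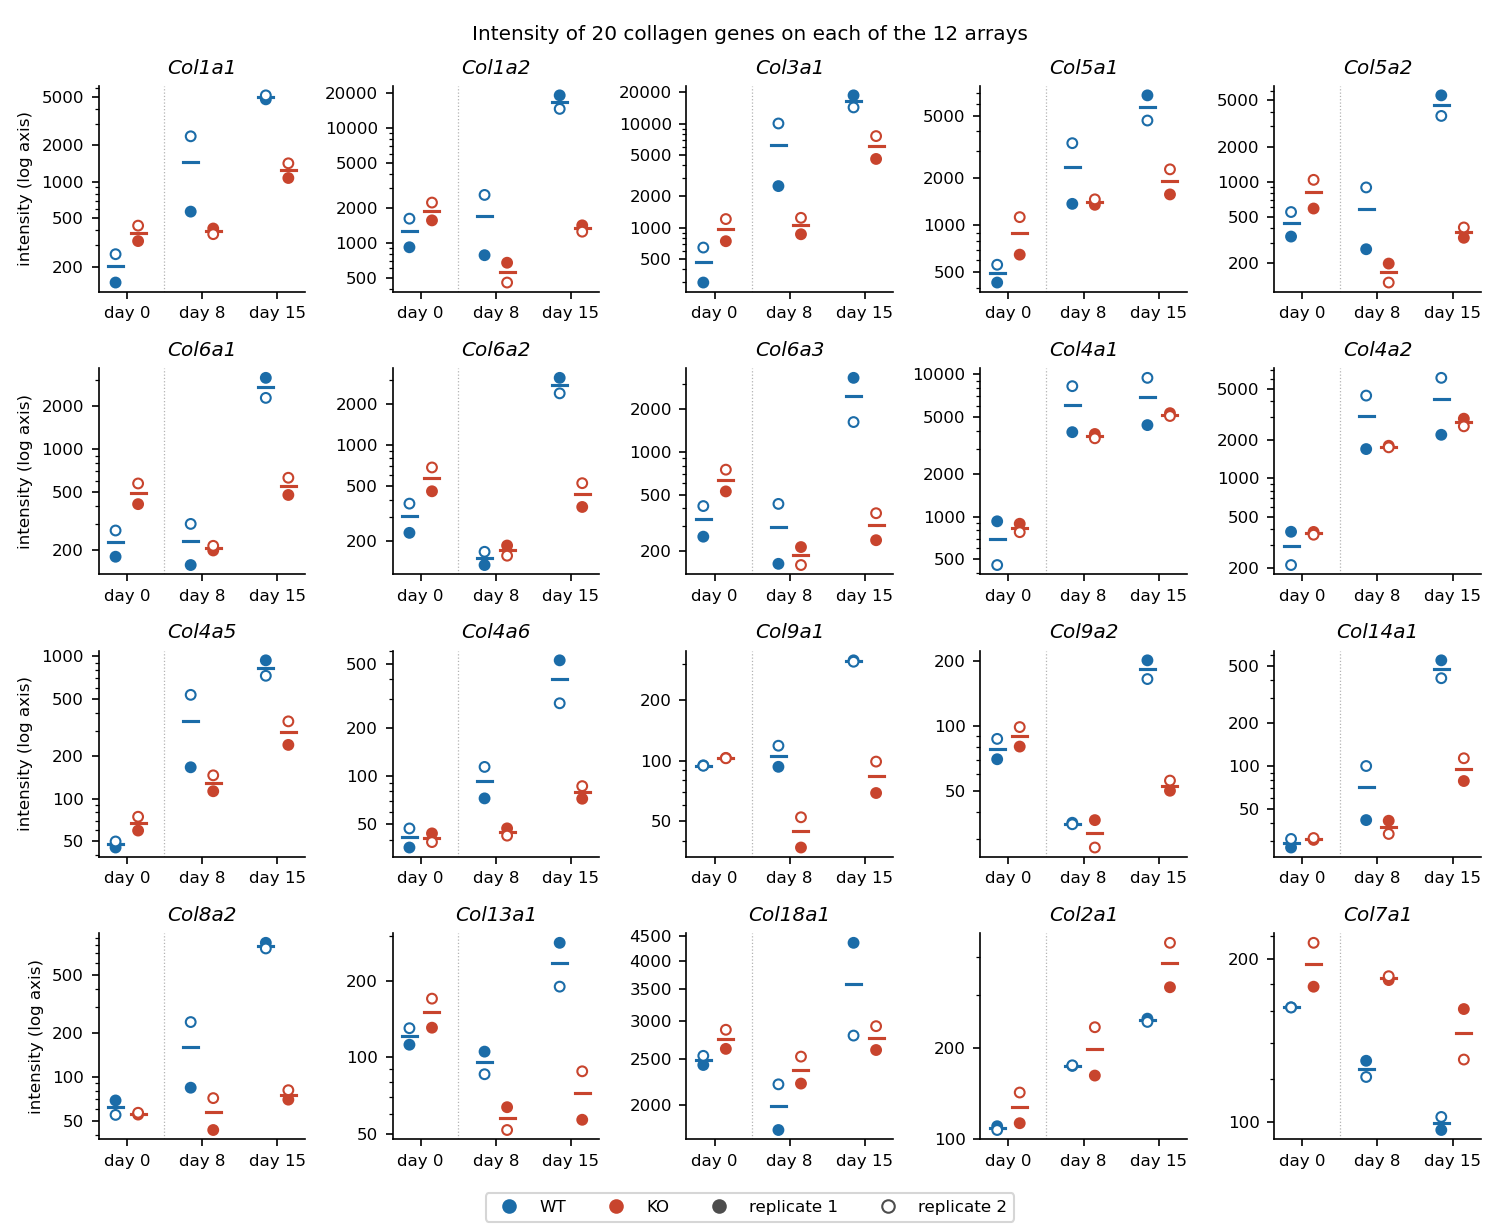
Intensity (log axis, with its own range in each panel) of 20 collagen genes on each of the 12 arrays, WT in blue and KO in red, filled for replicate 1 and open for replicate 2, with a line at the mean of each group and a dotted line between the day 0 arrays and the later ones, which were scaled apart. *Col1a2* reaches 19252 and 14683 in WT cells at day 15 and 1424 and 1254 in KO cells, whereas the *Col4a1* arrays of the genotypes overlap.

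The promoter sequences of 4 of these genes are shown because their products moved together from different chromosomes: type I and type VI chains of fibroblasts, and *Col8a2*, a network chain described next. RefSeq windows from 250 bases before to 50 after the start were at hand for 33 of the 42 genes, 36 windows in all. Each line gives the 150 bases before the annotated start, 5′ to 3′ on the strand of the gene, in the build GRCm38.p6, and capitals mark matches to 4 motifs searched on both strands: CCAAT of the factor NF-Y, the GGGCGG core of sites for Sp factors, TGANTCA of AP-1 factors and the TATAAA box.
*Col1a2*, chr6:4505468-4505617, plus strand: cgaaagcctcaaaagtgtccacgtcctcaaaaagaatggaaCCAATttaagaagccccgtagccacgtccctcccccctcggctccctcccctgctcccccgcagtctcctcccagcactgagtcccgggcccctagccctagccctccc
*Col6a1*, chr10:76726045-76726194, minus strand: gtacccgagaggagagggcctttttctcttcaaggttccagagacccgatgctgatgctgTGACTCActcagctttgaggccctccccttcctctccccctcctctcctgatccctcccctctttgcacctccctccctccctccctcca
*Col6a3*, chr1:90843972-90844121, minus strand: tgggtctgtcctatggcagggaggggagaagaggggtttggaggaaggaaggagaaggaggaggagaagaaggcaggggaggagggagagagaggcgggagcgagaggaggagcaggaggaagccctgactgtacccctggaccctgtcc
*Col8a2*, chr4:126286644-126286793, plus strand: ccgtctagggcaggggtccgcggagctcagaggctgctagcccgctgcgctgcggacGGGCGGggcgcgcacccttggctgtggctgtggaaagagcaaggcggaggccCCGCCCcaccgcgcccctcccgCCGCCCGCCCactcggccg

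The 4 windows shared none of the motifs in these 150 bases, but over the full windows *Col1a2* and *Col8a2* both held the Sp motif. *Col1a2* holds the NF-Y motif at -109 from the start, and *Col6a1* holds the AP-1 motif at -90. *Col8a2* holds the Sp motif at 4 positions, the last overlapping the one before it, and *Col6a3* holds none of the 4. Over the full windows the Sp motif was found in 61.1% of collagen windows and 35.7% of the windows of all genes, in 56.2% of the windows of genes that were lower at day 15 and in 65.0% of the others. The NF-Y motif was found in 36.1% of collagen windows against 37.4% of all, the TATA box in 13.9% against 13.6%, and the AP-1 motif in 2.78% against 7.81%. A match is a run of letters and not a measured site.

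Among the other structural kinds, the network and transmembrane collagens split by gene at day 15. *Col8a2*, a chain of the hexagonal network of type VIII in the cornea and vessel wall, read 828 and 757 in WT cells and 69.5 and 80.7 in KO cells, a log2 difference of -3.40 ± 0.41 (adjusted p = 0.00100). Its partner *Col8a1* read 93.3 and 193 in WT cells and 135 and 151 in KO cells, and these arrays overlapped. *Col13a1*, a transmembrane collagen of cell contacts, read 281 and 189 in WT cells and 57.0 and 88.3 in KO cells, lower by -1.70 ± 0.25 (adjusted p = 0.00174). *Col17a1*, the hemidesmosomal collagen that anchors basal keratinocytes, read 61.6 and 33.2 against 20.3 and 21.5, and its difference of -1.11 ± 0.23 passed (adjusted p = 0.00929). This gene did not pass with only the arrays of day 15 or by the t-test without adjustment. *Col15a1*, a multiplexin of basement membrane zones, passed at -0.54 ± 0.12 and the dim *Col26a1* at -0.85 ± 0.17. *Col7a1*, which forms the anchoring fibrils under the epidermis, went the other way, from 96.8 and 102 in WT cells to 162 and 131 in KO cells, higher by 0.55 ± 0.14 (adjusted p = 0.0270). It did not pass in 5 of the 12 fits that left out 1 array, without the day 0 arrays, with only the arrays of day 15, or by the t-test without adjustment. Beside these 2 genes of the skin attachment, 3 of 8 basal epidermis markers were lower in KO cells, the keratins *Krt15*, *Krt14* and *Krt5* at -2.21 ± 0.27, -1.64 ± 0.26 and -1.37 ± 0.15, and 2 were higher, *Itga6* at 0.89 ± 0.17 and *Lamb3* at 0.64 ± 0.12. Of all genes, 8.31% were lower and 8.77% higher.

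FACIT collagens divided in the same way. *Col14a1*, which binds to type I fibrils, read 551 and 413 in WT cells and 78.7 and 114 in KO cells at day 15, lower by -2.33 ± 0.35 (adjusted p = 0.00248). *Col9a1* and *Col9a2*, chains of type IX, read 313 and 308 against 69.1 and 98.8 and 201 and 165 against 50.3 and 56.1, with differences of -1.91 ± 0.20 and -1.78 ± 0.18 (adjusted p = 0.000289 and 0.000236). The arrays of the groups did not overlap, but the third chain of the trimer, *Col9a3*, read 68.4 and 67.3 in WT cells and 80.3 and 69.0 in KO cells, and a second probe set of *Col9a1* did not pass at -0.29 ± 0.13. *Col16a1* was lower at -1.52 ± 0.21 (adjusted p = 0.00117), while *Col12a1*, at -1.16 ± 0.51, did not pass although both KO arrays lay below both WT arrays.

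Type IV collagen split between its chains. *Col4a1* and *Col4a2*, neighbours in opposite orientation on chromosome 8 and partners in the common trimer, were bright in both genotypes. *Col4a1* read 4397 and 9451 in WT cells and 5335 and 5096 in KO cells at day 15, and *Col4a2* read 2193 and 6113 against 2931 and 2555. Both KO arrays lay between the WT arrays, and the differences of -0.31 ± 0.44 and -0.42 ± 0.53 did not pass. *Col4a6* read 525 and 283 in WT cells and 72.1 and 86.4 in KO cells, lower by -2.29 ± 0.29 (adjusted p = 0.000906). *Col4a5*, its neighbour on chromosome X in opposite orientation, read 939 and 731 against 238 and 349, and its difference of -1.52 ± 0.45 narrowly failed to pass (adjusted p = 0.0570). *Col4a3* and *Col4a4*, chains of the kidney and lung membrane, were dim on every array. Of 12 parietal endoderm markers, 2 were lower at day 15, *Gata6* at -2.10 ± 0.31 and *Gata4* at -0.62 ± 0.12, where 8.31% of all genes were lower. The summed intensity of the list was 20960 to 26700 in WT cells and 15540 to 15840 in KO cells.

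Markers of other cells moved beside the collagens at day 15. Of all genes, 8.31% were lower in KO cells at that day and 8.77% higher. Of 14 measured fibroblast markers that are not collagens, 10 were lower in KO cells and none was higher, with a median of -1.94, led by *Dcn* at -3.57 ± 0.62, *Lum* at -3.05 ± 0.84, *Pdgfra* at -2.26 ± 0.21 and *Fbln5* at -2.15 ± 0.34. Their summed intensity was 26260 to 37010 in WT cells and 5287 to 7511 in KO cells. Of 10 ES cell markers, 9 were higher, with *Tdgf1* at 4.24 ± 0.41, *Pou5f1* at 3.58 ± 0.39, *Fgf4* at 3.25 ± 0.54 and *Nanog* at 3.10 ± 0.36, and their sum was 2578 to 7805 in WT cells and 18390 to 19610 in KO cells. The part of these shifts in the collagen differences was not tested. Of 9 endothelial markers 7 were lower, with *Tek* at -2.40 ± 0.44 and *Kdr* at -2.35 ± 0.36, of 8 smooth muscle markers *Cnn1* alone passed, higher at 0.77 ± 0.18, and of 5 bone markers none passed. No marker of these lists was at 0 on any array.

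Genes that modify and fold the chains were lower as well. Of 18 measured genes for modification and folding of the chains, 11 were lower in KO cells at day 15 and none was higher, beside the 8.31% and 8.77% of all genes, with a median of -0.70. Those with the largest differences were *P3h3*, of the prolyl 3-hydroxylase family, at -1.78 ± 0.23, the catalytic chains of prolyl 4-hydroxylase *P4ha2* at -1.33 ± 0.26 and *P4ha1* at -1.20 ± 0.23, and *P3h4* at -1.16 ± 0.22. The collagen chaperone *Serpinh1*, with 7709 and 7151 in WT cells and 3972 and 4479 in KO cells, did not pass, although no arrays overlapped. Of 6 genes for processing of procollagen, *Adamts3*, a procollagen protease, was lower at -0.85 ± 0.14 and *Pcolce2*, an enhancer of C-propeptide cleavage, was higher at 2.35 ± 0.38, from 24.96 and 23.7 in WT cells to 123 and 124 in KO cells. The brighter *Pcolce* went the other way, from 3121 and 2507 in WT cells to 875 and 1286 in KO cells. It did not pass, although no arrays overlapped. Of 8 receptors, *Mrc2*, an endocytic receptor for collagen, was lower at -1.47 ± 0.23 and no other passed.

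Between days 8 and 15, arrays of 1 scale, collagens rose in WT cells. Of the 42 genes 19 rose and 1, the dim *Col6a4*, fell, against 9.66% and 11.3% of all genes and 21.0% for both directions together. The median change was 0.73 over collagens and 0.01 over all genes, and both arrays of day 15 lay above both of day 8 in 27 collagens, where 28.6% of all genes did so. *Col6a2* rose from 133 and 166 to 3091 and 2383, 18.3-fold by the means and 4.19 ± 0.28 on the log2 scale (adjusted p = 4.5e-05). *Col6a1* rose by 3.61 ± 0.32, *Col1a2* by 3.55 ± 0.51, *Col5a2* by 3.22 ± 0.54, *Col6a3* by 3.13 ± 0.50 and *Col14a1* by 2.88 ± 0.35. The *Col1a2* arrays at day 8, 783 and 2619, were themselves over 3-fold apart. The rises of *Col9a2*, *Col9a1*, *Col6a1*, *Col6a2* and *Col15a1* also passed when WT arrays of these days were fitted alone, where 1.15% of all genes passed.

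In KO cells the median change from day 8 to day 15 was 0.31 over the collagens. It was below that of WT cells in fibrillar genes (0.43 and 0.76), FACIT genes (0.63 and 1.01) and other genes (0.13 and 0.76). In the 6 type IV genes the KO median was above the WT median (0.56 and 0.30). Taken gene by gene, though, the KO change was below the WT change in 4 of these 6, with a median difference of -0.19. The methods' t-test after adjustment passed 0 of the 42 genes and also 0 of all genes. The fit over all arrays passed none of the 42 either, against 0.0275% of all genes, with 15 at an unadjusted p under 0.05, against 11.5%. Without WT day 8 replicate 1 or replicate 2, 5 passed, against 1.03% and 1.04% of all genes. Fitted on the 4 KO arrays alone, 13 collagens passed, each of them higher at day 15, against 4.18% of all genes. They were *Col1a1*, *Col1a2*, *Col2a1*, *Col5a2*, *Col4a1*, *Col4a2*, *Col4a5*, *Col4a6*, *Col6a1*, *Col6a2*, *Col12a1*, *Col14a1* and *Col16a1*. *Col1a1* read 412 and 371 at day 8 and 1076 and 1423 at day 15, a change of 1.66 with a standard error of 0.13 in that fit and 0.55 in the fit over all arrays. *Col3a1* read 866 and 1246 and then 4590 and 7616, a change of 2.51 ± 0.62 in the fit over all arrays that did not pass (adjusted p = 0.238). Both KO arrays of day 15 lay above both of day 8 in 23 collagens, of which 22 were not dim, where 24.2% of all genes did so.

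The change from day 8 to day 15 differed between genotypes in 2 collagens, against 0.66% of all genes. *Col6a2* had a change of 1.35 ± 0.28 in KO cells and of 4.19 ± 0.28 in WT cells, a difference of -2.84 ± 0.40 (adjusted p = 0.0220), and *Col9a2* of 0.74 ± 0.18 and 2.36 ± 0.18, a difference of -1.62 ± 0.25 (adjusted p = 0.0244). Without WT day 8 replicate 2 the count was 10, against 5.54% of all genes, without WT day 15 replicate 2 it was 7, against 3.57%, and without KO day 8 replicate 1 or KO day 15 replicate 1 it was 0, against 0.077% and 0.0385%. For *Col1a2*, *Col5a2*, *Col6a3* and the other collagens the difference did not pass.

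**Figure D3:**
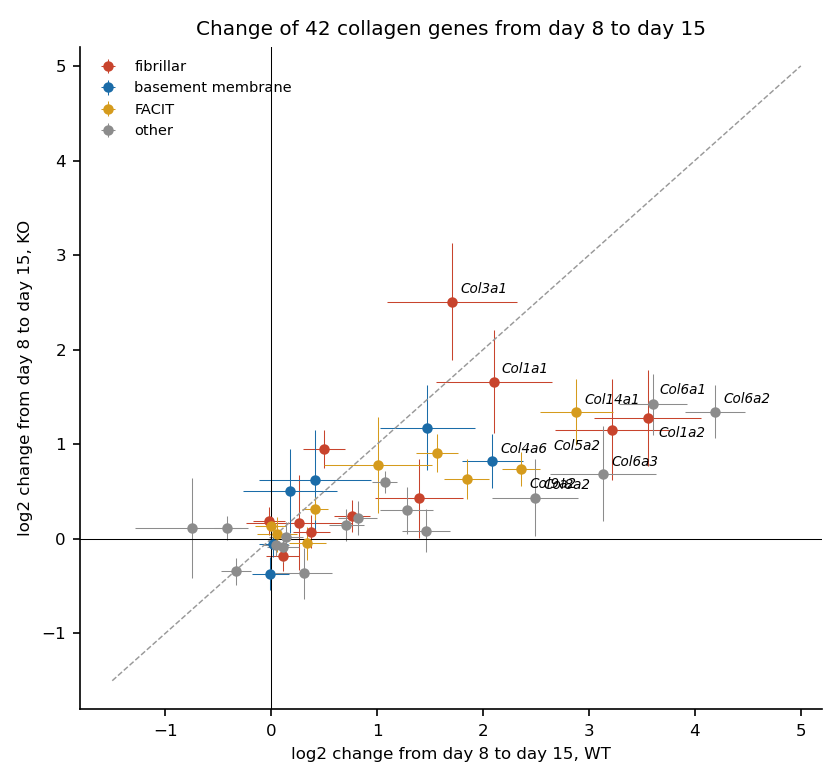
Change from day 8 to day 15 on the log2 scale in WT cells (x axis) and KO cells (y axis) for the 42 collagen genes, coloured by kind, with bars of 1 standard error of the limma fit over all arrays and a dashed line of equal change. *Col6a2* lies at 4.19 and 1.35 and *Col6a1* at 3.61 and 1.42, under the line, and *Col3a1* at 1.71 and 2.51 above it.

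At day 8, before this rise, 1 collagen passed between the genotypes, against 1.54% of all genes. That gene was *Col9a1*, whose second probe set did not pass, at 0.06. Its brightest probe set read 93.1 and 118 in WT cells and 37.2 and 52.4 in KO cells, lower by -1.25 ± 0.20 (adjusted p = 0.0169). It did not pass when WT replicate 2 (adjusted p = 0.0624) or either KO array of that day was left out. With it, 14 genes had an unadjusted p under 0.05, against 15.9% of all genes, and the median over the 42 was -0.22 against 0.03 over all genes. The largest differences that did not pass were those of *Col3a1*, with 2516 and 10068 in WT cells and 866 and 1246 in KO cells, at -2.28 ± 0.62 (adjusted p = 0.136), and *Col1a1*, with 568 and 2376 against 412 and 371, at -1.57 ± 0.55. In both genes the KO arrays lay below both WT arrays, and the WT arrays were about 4-fold apart, at ratios of 4.00 and 4.18. Both KO arrays lay below both WT arrays in 12 collagens and above them in 13, where 18.5% and 27.2% of all genes did so.

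The day 8 result turned on the WT replicates. Replicate 2 was the higher in each of the 14 collagens over 2-fold apart, which were 6 fibrillar, 3 type IV, 2 FACIT and 3 other genes. *Col4a1* read 3923 and 8258 and *Col4a2* 1696 and 4442 in WT cells, and 3808 and 3552 and 1800 and 1750 in KO cells, so that 1 WT array lay near the KO arrays and the other well above. Replicate 2 was also over 2-fold higher in 6 of 12 parietal endoderm markers, *Lama1* reading 344 and 1146, and in 5 of 14 fibroblast markers, *Postn* reading 846 and 7011. In KO cells at day 8 none of the 42 collagens lay over 2-fold apart, where 0.115% of all genes did so. Without WT day 8 replicate 1, 13 collagens were lower and 2 higher at day 8, against 7.89% of all genes, and without replicate 2 none passed, against 1.02%. The part of the other markers in this gap was not tested. At day 15 *Col4a1* and *Col4a2* were again over 2-fold higher on replicate 2 of WT cells, beside *Lama1* at 437 and 1576, while the fibrillar genes were not.

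**Figure D4:**
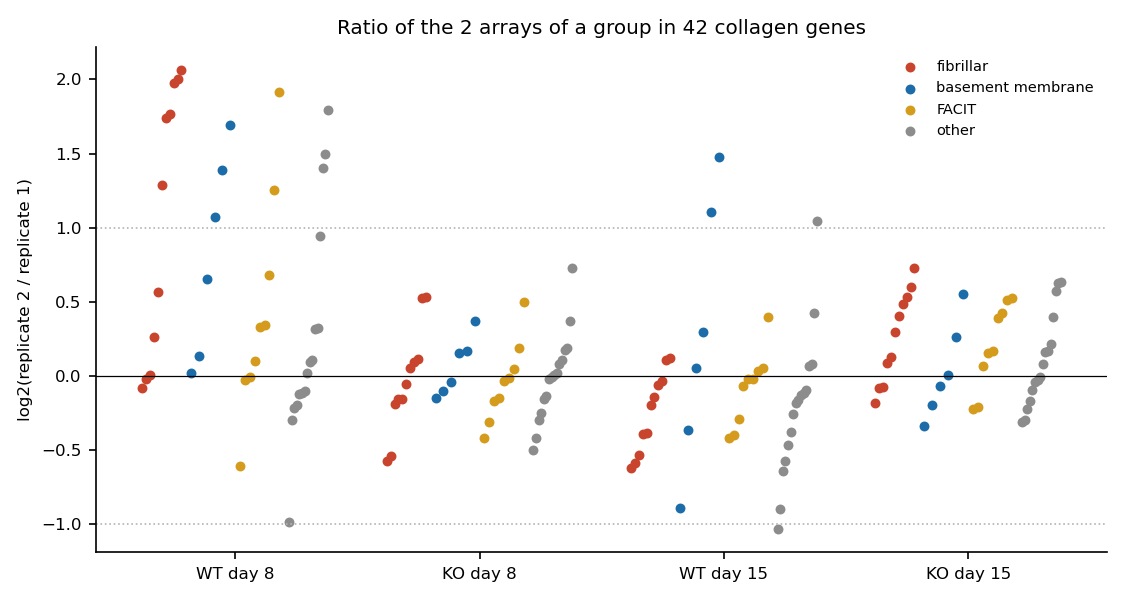
Log2 ratio of replicate 2 to replicate 1 (y axis) in the 4 groups of days 8 and 15 (x axis), 1 point for each of the 42 collagen genes, coloured by kind, with dotted lines at 2-fold. In WT cells at day 8, 14 points lie above the upper line, and in KO cells of both days none lies outside the lines.

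At day 0 the order was the reverse, with collagens somewhat higher on the arrays of KO lines. None of the 42 genes passed, against 0.033% of all genes, with 5 at an unadjusted p under 0.05, against 7.2%. In the methods' t-test after Benjamini-Hochberg adjustment no collagen passed, and neither did any of all genes. The difference was above 0 in 36 genes, with a median of 0.22 against 0.04 over all genes, and both KO arrays lay above both WT arrays in 26, where 31.2% of all genes did so. *Col6a1* read 179 in N12, 273 in N33, 415 in F35 and 578 in A49, a log2 difference of 1.15 ± 0.32 (adjusted p = 0.266). *Col3a1* read 297, 645, 742 and 1213 in the same order of lines, *Col12a1* read 153, 201, 307 and 455, and *Col1a1* read 148, 253, 325 and 436. *Col6a2* and *Col6a3* had differences of 0.94 ± 0.28 and 0.95 ± 0.50.

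Each of these genes ran in the same order, N12 lowest, then N33, F35 and A49. F35 is the G3 line and A49 the G4 line, so among the KO lines this order also follows generation and telomere length. That order was found in 16 of the 42 collagens and in 9.39% of all genes. It was read from the 6 genes with the largest differences at day 0, which are among the 16, so the count is no test of it. It held in 6 of 11 fibrillar genes and 8 of the 16 others, and in 1 of 6 type IV genes and 1 of 9 FACIT genes. Fibroblast markers that are not collagens had it in 11 of 14, and A49 read highest in all 14, where it did so in 37.9% of all genes. Their summed intensity was 3113 and 4544 in the WT lines and 5048 and 7989 in the KO lines. From N12 to A49 the ratio was 4.08 in *Col3a1*, 3.22 in *Col6a1*, 3.07 in *Col5a2*, 3.00 in *Col6a2* and 2.95 in *Col1a1*, and among the fibroblast markers it ran from 1.06 in *Twist1* to 3.51 in *Prrx1*. The parts of feeder cells, generation and telomere length in the day 0 levels were not tested. ES cell markers summed to 63890 to 64280 in WT lines and 66410 to 67750 in KO lines, and none of the 10 passed.

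Type IV collagen took another order at day 0. *Col4a1* read 926 in N12, 456 in N33, 890 in F35 and 777 in A49, and *Col4a2* read 383, 210, 382 and 363, with N33 the low line for both. Of the 12 parietal endoderm markers, N33 read lowest in 6, among them *Sox17* and *Dab2*, N12 in 4, among them *Nid1* and *Thbd*, F35 in *Sparc* and A49 in *Lama1*. N12 read lowest in 27.5% of all genes, and the share of N33 was not counted. The gap could be small, with *Lamb1* at 2325 in N12 and 2274 in N33, and a link to *Col4a1* and *Col4a2* was not tested. *Col18a1*, the multiplexin that yields endostatin, read 2428, 2537, 2623 and 2874 and was bright on every array.

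**Figure D5:**
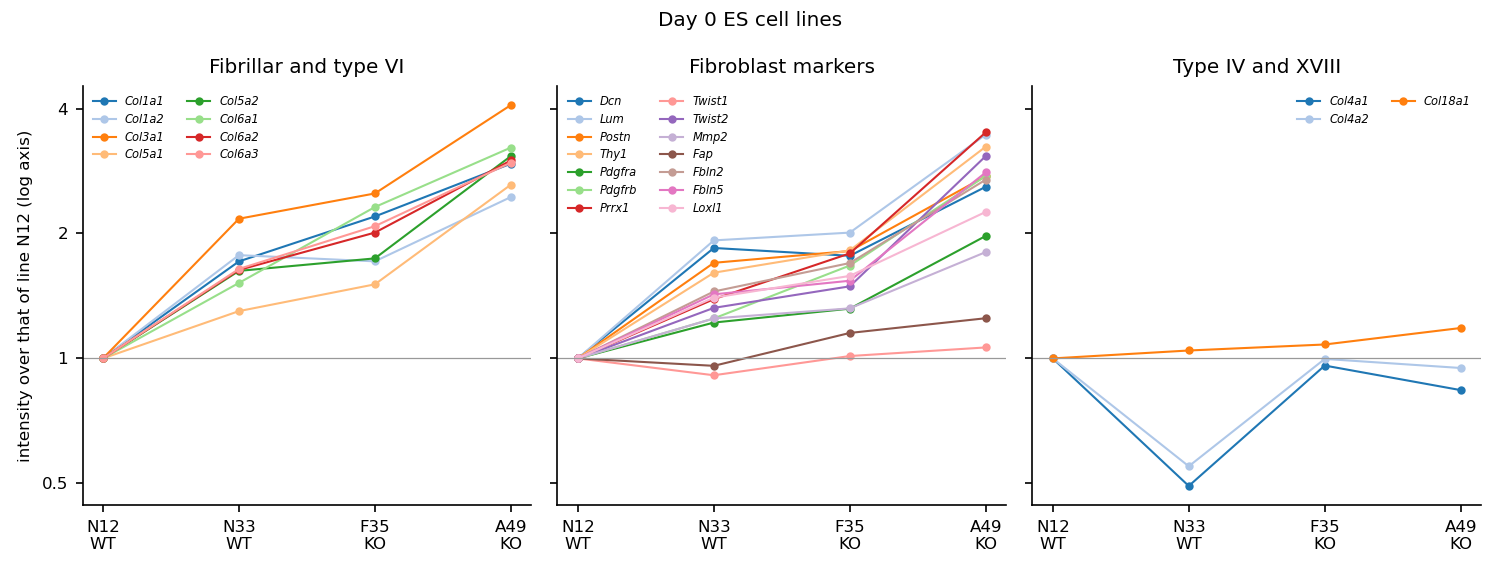
Intensity in each day 0 ES cell line over that in line N12 (y axis, log axis) for fibrillar and type VI collagens, for fibroblast markers that are not collagens, and for *Col4a1*, *Col4a2* and *Col18a1* (x axis, the WT lines N12 and N33 and the KO lines F35 and A49). *Col3a1* reaches 4.08 in A49 and *Prrx1* 3.51, while *Col4a1* and *Col4a2* are lowest in N33.

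Set against day 0, the difference between KO and WT cells at day 15 had moved downward in 15 collagens, against 3.51% of all genes downward and 6.06% in either direction, and upward in none. This test compares the genotype differences of each day, in which a common factor cancels, but the scales differed by more than a factor. Lower quartiles were 54.4 to 56.3 at day 0 and 19.1 to 20.7 later, and upper quartiles 338 to 343 and 190.2 to 207, and the part of this in the values was not tested. *Col5a2* moved by -4.49 ± 0.76, *Col1a2* by -4.27 ± 0.72, *Col6a3* by -3.92 ± 0.71, *Col6a2* by -3.60 ± 0.40 and *Col6a1* by -3.42 ± 0.45, with adjusted p of 0.00258 to 0.0205. By kind they were 3 fibrillar, 1 type IV, 4 FACIT and 7 other genes. With KO day 15 replicate 1 left out 4 passed, against 1.21% of all genes, and with WT day 0 replicate 1 or KO day 0 replicate 2 left out 6 passed, against 1.83% and 2.2%.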

How the data were processed

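RNA of 12 samples was hybridised to Affymetrix mouse arrays, and the authors deposited 1 linear intensity per probe set and array. The submitters' processing notes name MAS5, with the version not given in the sources used here, and the study's methods name software of CapitalBio. Differences in probe brightness and the separate scaling of day 0 limit comparisons to 1 probe set within days or between days 8 and 15. Of 45101 probe sets, 64 controls were left out. Names came from the platform annotation, in which 34945 tested probe sets have 1 symbol, 932 several and 9160 none.

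Intensities below 1 were raised to 1 and taken to log2. The limma model (version 3.58.1, run in R 4.3.3 with statmod 1.5.0) held 1 mean per group over all 12 arrays, with an intensity trend and robust moderation. P-values are two-sided and adjusted by Benjamini-Hochberg over 45037 probe sets. A gene was read from its brightest probe set by the mean over all arrays. Fold values are ratios of linear group means. The fit was tested on simulated data. Motifs were searched and plots drawn in Python 3.11.15 (matplotlib 3.10.9, numpy 2.4.6, pandas 2.3.3). All 42 collagen genes were found in the RefSeq table of GRCm38.p6.

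The collagens, their classes and the 11 lists (modification and folding, processing, receptors, fibroblasts, ES cells, parietal endoderm, cartilage, bone, endothelium, smooth muscle, basal epidermis) were chosen with earlier results of these data known. Named genes are up to 12 passing collagens at each of days 8 and 15 with the largest log2 difference, the chains that share a trimer or promoter with them, the 6 largest differences at day 0, and up to 4 passing members of each list or its 2 brightest, and others named were chosen after their values were seen. Alternatives were an offset of 32, brighter probe sets only, quantile normalization, median centring, no moderation by trend, the replicate number as a block, a fit of only those arrays that are compared, the methods' t-test, the 1.8-fold rule of the methods, the mean over probe sets, and each array left out. The fit without day 0 arrays was added after seeing the data.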

Additional observations from a re-analysis of the deposited data

Results flagged for a closer look

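The collagens below differed between genotypes in their change over time, by the interaction term of the limma fit. From day 8 to day 15 the KO change was below the WT change in *Col6a2* by -2.84 and in *Col9a2* by -1.62 on the log2 scale. Between day 0 and day 15, whose arrays were scaled apart, the difference between KO and WT cells moved by -4.49 in *Col5a2*, -4.27 in *Col1a2*, -3.92 in *Col6a3*, -3.60 in *Col6a2*, -3.42 in *Col6a1* and -3.26 in *Col8a2*. It moved by -2.43 in *Col14a1*, -2.29 in *Col4a6*, -2.03 in *Col9a1*, -2.01 in *Col13a1*, -1.97 in *Col9a2* and -1.86 in *Col16a1*. The smallest moves were those of *Col27a1* at -1.05, *Col26a1* at -0.98 and *Col15a1* at -0.80. The day 0 difference itself lay above 0 in each of these 15 genes but *Col8a2*, beside the fibroblast markers, most of which had 1 order over the 4 lines, whose part in it was not tested.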

How the results depend on the processing

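Of 449 values of single collagens under alternatives, 410 kept their direction and side of the threshold, 33 no longer passed, 6 now passed the 1.8-fold rule at day 0, and none reversed. Of 160 counts, 119 stayed within 1.5 times. At day 15, 20 collagens passed, between 13 and 24 with 1 array left out, 22 with a replicate block and 0 by the methods' t-test after adjustment, against 18 unadjusted. The adjusted t-test passed 0 of all 18193 genes in every comparison it was run on. The replicate numbers gave correlations of -0.061 to 0.053 between deviations and do not pair the samples. With the block the counts were 0 at day 0 (0.0055% of all genes), 1 at day 8 (1.53%) and 22 at day 15 (16.5%). They were 22 for WT cells from day 8 to 15 (20.4%) and 0 for KO cells (0.044%). For the differences from day 8 and day 0 they were 2 and 18 (0.511% and 5.79%). At day 0, 4 passed the t-test unadjusted, against 8.6% of all genes, and 7 the 1.8-fold rule, against 0.83%. At day 8 the count of 1 became 0 with only the arrays compared (0% of all genes), without the day 0 arrays (0.901%), by the adjusted t-test (0%) and by the mean over probe sets (1.65%). It became 5 by the unadjusted t-test (9.65% of all genes) and 12 by the 1.8-fold rule (2.98%). Leaving out 1 array moved the day 8 count in both directions, as given above. From day 8 to 15 the count of 20 in WT cells became 5 with only the arrays compared, 0 by the adjusted and 12 by the unadjusted t-test (12.2% of all genes), and that of 0 in KO cells became 13, 0 and 12 (12.6%), with 10 by the 1.8-fold rule (1.31%) and 0 to 5 with 1 array left out. The 2 differences from day 8 became 1 with brighter probe sets (0.531% of the genes tested), quantile normalization (0.445%), only the arrays compared (0.104%) or no day 0 arrays (0.104%). Leaving out 1 array moved this count in both directions, as given above. The 15 from day 0 became 4 to 20 with 1 array left out. With 1 array left in a group, that array was assumed to vary like the others. *Col15a1*, *Col17a1*, *Col26a1*, *Col6a4* and *Col9a2* were too dim to be tested among the brighter probe sets. The causes were not tested.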

Other observations

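Probe sets of 1 gene differed in a few collagens outside the comparisons above. *Col25a1*, a transmembrane collagen of neurons, did not pass at day 15 on its brightest probe set, at 0.14 ± 0.12, while its other probe set was lower in KO cells at -1.78 ± 0.32 (adjusted p = 0.00574). *Col22a1*, a FACIT collagen of tissue junctions, did not pass on its brightest probe set, and 2 of its 3 probe sets were higher in KO cells, by up to 1.09. Each array reads a transcript only where its probes lie, and which transcript each probe set reads was not analysed here.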
